A study of Mus musculus with 6 samples.

Results

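The nucleoplasmin family comprises Npm1, Npm2 and Npm3, and was examined together with Npm3-ps1, which RefSeq annotates as a transcribed pseudogene. These 4 genes were taken by symbol, with every probe that the platform annotation gives to one of them, and 3 of them are among the 19057 genes with a probe. The set was chosen by the difference in Npm3-ps1 intensity between CD133-positive and CD133-negative cells, so the values of Npm3-ps1 are a description and carry no test. Of 45281 probes on the array, 5 belonged to the members, 2 to Npm3-ps1, 2 to Npm1 and 1 to Npm2. No probe was listed for Npm3, whether by symbol, by gene identifier or by transcript accession, and no probe listed for several genes named a family member. A comparison of Npm3 with Npm3-ps1 on the same arrays could therefore not be made from named probes.

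RNA came from CD133-positive and CD133-negative cells of KPC001, a pancreatic cancer line from the KPC mouse, an engineered strain that develops pancreatic tumours. There were 3 arrays of CD133-positive and 3 arrays of CD133-negative cells, 1 sample per Illumina bead array. Both populations came from the same untreated line in high-glucose medium with serum. CD133, the product of Prom1, is a membrane protein by which cells that start tumours are often sorted. All samples thus come from 1 line, and the labels do not say how the cells were separated or whether the replicates were separate cultures, so the spread behind each p-value is that of these 6 samples and may be technical.

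Nucleoplasmins are histone chaperones that form pentameric rings and bind histones through acidic stretches. Npm1, or nucleophosmin, is an abundant nucleolar protein that shuttles to the cytoplasm, takes part in ribosome assembly and centrosome duplication, and binds the p53 regulator ARF. Npm3 is a nucleolar relative that binds Npm1, and Npm2 is the oocyte form that acts on sperm and early embryonic chromatin. The study asked which genes differ between the CD133-positive and CD133-negative cells of this line.

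Between 37.8% and 39.9% of probes were detected per array, which means a detection p under 0.05 against the negative controls. All 3 Prom1 probes were at background on every array, so the labels could not be checked against that transcript. Of the 8 epithelial and ductal markers examined, 7 were above background, among them Krt8, Krt18 and Krt19, and Epcam was not detected on any array. The 7 had a median log2 difference of -0.12 and 0 of them passed the test. The deposited, unnormalized intensities of all 11 epithelial probes summed to 23258 to 25665 on the CD133-positive arrays, against 27300 to 30770 on the CD133-negative arrays. Such sums also hold differences in scale between arrays, so they are not read as a difference in epithelial content. The part of this in the results below was not tested. Of 27 leukocyte, endothelial, fibroblast, acinar and endocrine markers with a probe, 5 were above background on at least 3 arrays and 0 passed. Those 5 were Cd14, Col1a1 and Cela1, each detected on 6 arrays, Csf1r on 4 and Kdr on 3. Cd14 had a log2 difference of 0.12 ± 0.09 and Col1a1 of -0.27 ± 0.13 (SE, limma adjusted p = 0.566 and 0.348). Both were without overlap between groups, as were 23.1% of all tested probes. The acinar gene Cela1 overlapped between groups, with a log2 difference of -0.09 ± 0.14 (SE, limma adjusted p = 0.792). The defining markers Ptprc, Pecam1, Pdgfra, Cpa1 and Ins2 were each detected on at most 1 array. The part of any of these cells in the results was not tested.

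Npm3-ps1 was read by ILMN_2688681 and ILMN_2965417, both annotated to the transcript NR_002702, and both were detected on all 6 arrays. The deposited intensity of ILMN_2688681, a mean over its beads on a linear scale, was 959.5, 864.9 and 754.0 on the CD133-positive arrays and 251.1, 279.6 and 233.1 on the CD133-negative arrays. The lowest CD133-positive array thus stood far above the highest CD133-negative array. The deposited intensity of ILMN_2965417 was 4796.6, 4432.1 and 4415.0 on the CD133-positive arrays and 3570.9, 3607.6 and 3172.6 on the CD133-negative arrays. The groups did not overlap on this probe either. After normalization the groups were free of overlap for 23.1% of tested probes, 11.5% with CD133-positive cells higher and 11.6% with them lower, and since the members were chosen on this contrast nothing is read from the count of 2.

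**Figure D1:**
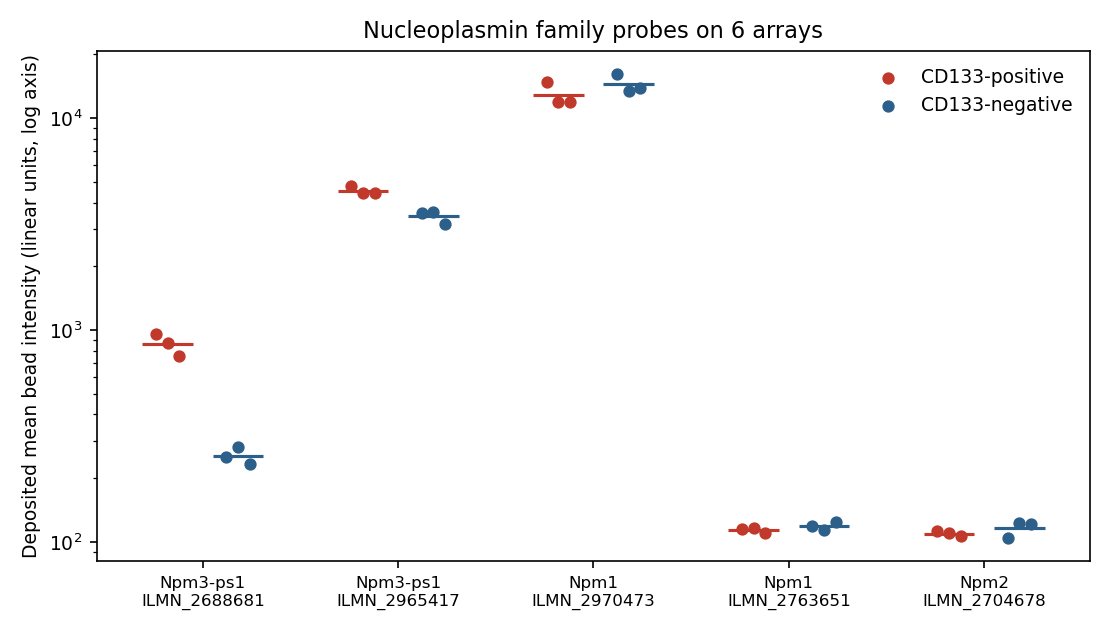
Deposited mean bead intensity (linear units, log axis) of the 5 family probes on each of 6 arrays, with CD133-positive arrays in red and CD133-negative arrays in blue. Points are arrays and horizontal lines are group means. Both Npm3-ps1 probes are separated between the groups, the bright Npm1 probe overlaps, and the second Npm1 probe and Npm2 lie between 104.3 and 124.5 units in both groups.

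The groups differed in size between the probes of this pseudogene. The mean deposited intensity of ILMN_2688681 was 859.5 ± 102.8 in CD133-positive and 254.6 ± 23.5 in CD133-negative cells (SD, n = 3 each), a ratio of 3.38. For ILMN_2965417 it was 4547.9 ± 215.5 in CD133-positive and 3450.4 ± 241.2 in CD133-negative cells, a ratio of 1.32. After background correction, log2 transformation and quantile normalization, ILMN_2688681 averaged 9.67 ± 0.13 in CD133-positive and 7.21 ± 0.20 in CD133-negative cells, a log2 difference of 2.46 with a standard error of 0.13, or 5.50-fold. ILMN_2965417 averaged 12.20 ± 0.02 in CD133-positive and 11.62 ± 0.06 in CD133-negative cells, a log2 difference of 0.58 with a standard error of 0.08, or 1.49-fold. Among 17219 tested probes ILMN_2688681 had the second largest positive difference, behind a probe with no gene name, and ILMN_2965417 stood at rank 253. The rank of ILMN_2688681 was 1 or 2 in every setting tried, while that of ILMN_2965417 lay between 33, in the authors' intensities, and 492, with a median shift in place of quantile normalization. The set was chosen by this difference and the settings reuse the same arrays, so the ranks are a description only.

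The size on ILMN_2688681 depended on the treatment of background, and that on ILMN_2965417 hardly did. Without background correction the log2 difference was 1.89 on ILMN_2688681 and 0.56 on ILMN_2965417. The authors' own processed intensities of ILMN_2688681 were 949.1, 934.6 and 824.8 on the CD133-positive arrays and 230.7, 270.0 and 232.2 on the CD133-negative arrays, a ratio of means of 3.70. For ILMN_2965417 the authors' values were 4743.1, 4842.3 and 4872.3 on the CD133-positive arrays and 3058.9, 3394.8 and 3213.4 on the CD133-negative arrays, a ratio of 1.5. In the authors' values, too, neither probe's groups overlapped.

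The beads of a probe give the precision within 1 array, which says nothing of the variation between samples. Each intensity of ILMN_2688681 rested on 37 to 55 beads, whose standard error was 2.76% to 5.43% of the mean. Each intensity of ILMN_2965417 rested on 33 to 50 beads, with a standard error of 2.06% to 3.89%.

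The probes of Npm3-ps1 were next set against each other on every array. A gap between 2 deposited intensities of 1 array is free of differences in scale between arrays. The gaps listed per array are of normalized intensities and so also carry the normalization. The log2 intensity of ILMN_2688681 minus that of ILMN_2965417 was -2.42, -2.49 and -2.69 on the CD133-positive arrays and -4.49, -4.25 and -4.50 on the CD133-negative arrays. Its mean was -2.53 ± 0.14 in CD133-positive and -4.42 ± 0.14 in CD133-negative cells, so the gap narrowed by 1.88 in CD133-positive cells. In the authors' intensities it narrowed by 1.30, and in the deposited, unnormalized intensities by 1.35. The probes of the pseudogene were thus not higher in proportion. A gap between probes shows only unequal change and does not tell which transcript either of them bound. The sequences of the probes and of the Npm3 and Npm3-ps1 transcripts were not used here, so pseudogene and Npm3 RNA cannot be told apart as the origin of the signal.

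**Figure D2:**
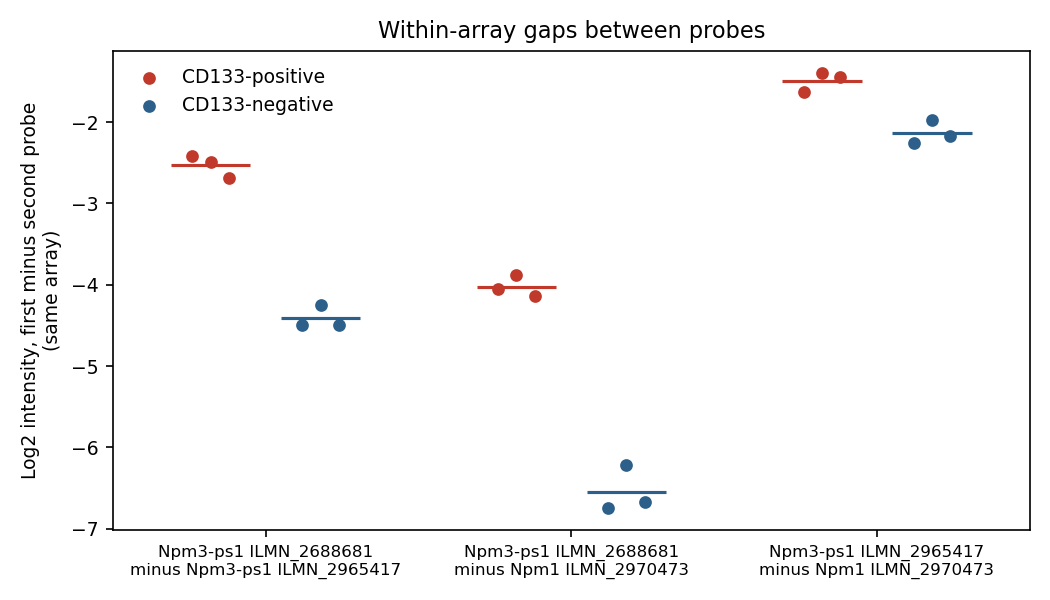
Normalized log2 intensity of one probe minus that of another on the same array, for the pair of Npm3-ps1 probes and for each of them against the bright Npm1 probe. Points are arrays, CD133-positive in red left of CD133-negative in blue, and lines are group means. All 3 gaps are separated between the groups, and the smallest shift, 0.64, is that of ILMN_2965417 against Npm1. The set was chosen by the Npm3-ps1 difference, so the separation is a description only.

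Npm1 was read at a high level by ILMN_2970473, which was detected on all 6 arrays. Its deposited intensity was 14873.1, 11965.2 and 11893.6 on the CD133-positive arrays and 16162.2, 13480.4 and 13883.5 on the CD133-negative arrays. The arrays of both groups overlapped. Normalized log2 intensity averaged 13.69 ± 0.11 in CD133-positive and 13.75 ± 0.09 in CD133-negative cells (SD, n = 3 each). The difference of -0.06 ± 0.09 (SE) did not pass in limma's moderated test across all tested probes (adjusted p = 0.788), and its 95% interval ran from -0.28 to 0.16, while in the authors' intensities the difference was 0.01. This interval holds the median of all tested probes, -0.02. In that comparison 264 of 17219 probes passed an adjusted p under 0.05, which is 1.53%, with 1.25% higher and 0.279% lower in CD133-positive cells.

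Set against Npm1 on the same array, both Npm3-ps1 probes were higher in CD133-positive cells. ILMN_2688681 minus the Npm1 probe was -4.05, -3.88 and -4.14 on the CD133-positive arrays and -6.75, -6.22 and -6.67 on the CD133-negative arrays, a difference of 2.52 between the means. ILMN_2965417 minus the Npm1 probe was -1.63, -1.39 and -1.45 on the CD133-positive arrays and -2.26, -1.97 and -2.17 on the CD133-negative arrays, a difference of 0.64. The set was chosen by the Npm3-ps1 difference and Npm1 differed by only -0.06. These gaps therefore repeat that difference by construction and are a description only.

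The second Npm1 probe, ILMN_2763651, carries the same transcript accession and was not well above background on any array. Its intensity was 114.8, 116.8 and 110.3 on the CD133-positive arrays and 118.6, 114.1 and 124.5 on the CD133-negative arrays, with detection p-values between 0.162 and 0.480. Npm2 had 1 probe, ILMN_2704678, also not well above background on any array. Its intensity was 112.5, 110.1 and 106.4 on the CD133-positive arrays and 104.3, 122.4 and 121.7 on the CD133-negative arrays, with detection p-values between 0.125 and 0.942. No fold is given for either probe, and both were outside the tested set. In all, 3 of the 5 family probes were above background on at least 3 arrays and entered the tests.

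**Figure D3:**
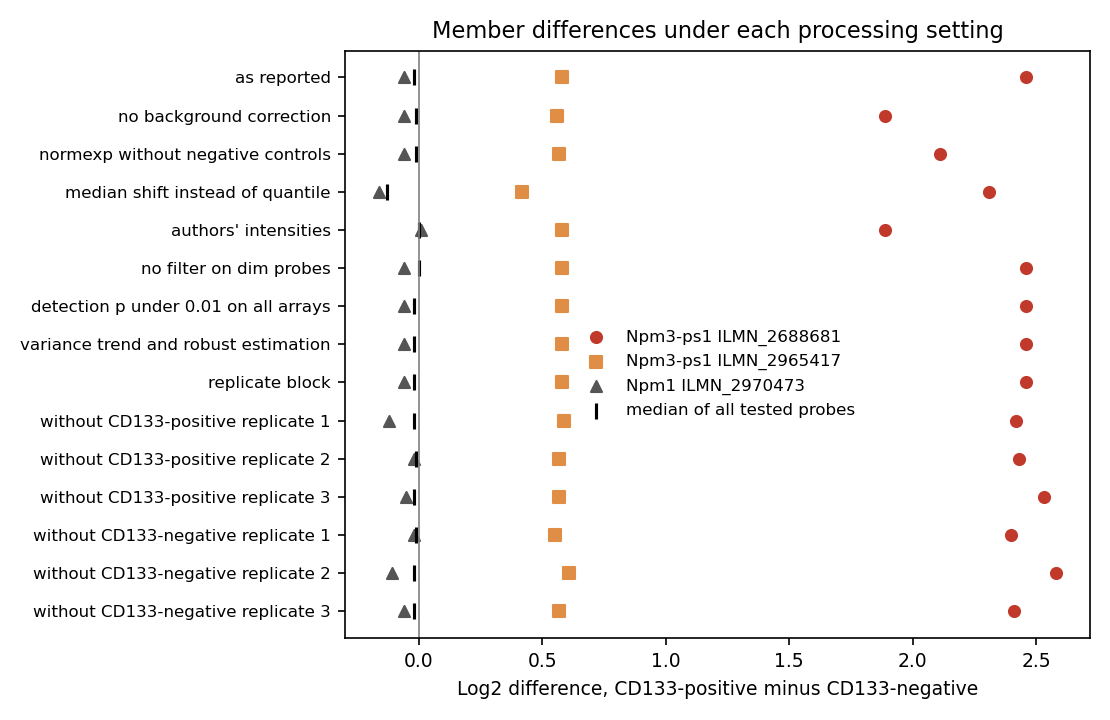
Log2 difference (CD133-positive minus CD133-negative) of the 3 detected family probes under the reported processing and each alternative, with the median of all tested probes as a black tick. ILMN_2688681 spans 1.89 to 2.58 and ILMN_2965417 spans 0.42 to 0.61, while Npm1 stays between -0.16 and 0.01.

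The genes that neighbour the members in the RefSeq assembly GRCm38.p6 were examined for signal from the same place in the genome. This rule, the 2 nearest protein-coding genes on either side, was set after the values of the members were known, and no protein-coding gene overlapped a member. The nearest neighbours of Npm3-ps1 are Exoc6b, a subunit of the exocyst, and Spr, the sepiapterin reductase of tetrahydrobiopterin synthesis. Exoc6b had a log2 intensity of 9.37 ± 0.10 in CD133-positive and 9.32 ± 0.16 in CD133-negative cells on its detected probe (SD, n = 3), a difference of 0.06 ± 0.11 (SE, limma adjusted p = 0.844). Spr had 8.61 ± 0.09 in CD133-positive and 8.64 ± 0.11 in CD133-negative cells, a difference of -0.03 ± 0.10 (SE, limma adjusted p = 0.924). Both of these neighbours were well detected and their groups differed by less than the spread between replicates. The next genes out, Cyp26b1 and Emx1, were not above background on at least 3 arrays.

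Npm3 itself has Oga, the enzyme that removes O-linked N-acetylglucosamine from proteins, and Fgf8, a growth factor, as its nearest neighbours. Oga had a log2 difference of 0.23 ± 0.10 on its detected probe (adjusted p = 0.287), and Fgf8 was not detected on any array. Fbxw4, the next gene beyond Fgf8, had 0.24 ± 0.17 on ILMN_2657986 and -0.31 ± 0.11 on ILMN_1241696 (adjusted p = 0.537 and 0.214), so its probes had opposite signs and neither passed. Over all members the neighbours numbered 16 genes with 8 tested probes, and 0 of the 8 passed by limma, against 1.53% of all tested probes. At an unadjusted p under 0.05 there were 2 of the 8, the Oga probe and ILMN_1241696 of Fbxw4, beside 16.6% of all tested probes. With 8 probes nothing is read from this count.

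Genes known to work with nucleophosmin were described in 4 lists, with the brightest tested probe for each gene. Of their 81 genes, 71 were tested and 1 passed, a share near the 1.53% of all tested probes, so the call is read as that of a single gene. At an unadjusted p under 0.05 there were 10 of the 71, 14.1%, beside 16.6% of all tested probes. The median log2 difference over the 9430 named genes with a tested probe was -0.03.

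Among the histone chaperones, the class to which the nucleoplasmins belong, 1 of 20 tested genes rose, 0 fell and 19 did not pass (1.25% of all tested probes were called higher and 0.279% lower). Their median log2 difference was 0.01, beside -0.02 for all tested probes. With a median shift in place of quantile normalization it was -0.14, beside -0.13 for all tested probes. The gene that rose was Rbbp7, a histone-binding WD-repeat protein found in several chromatin complexes. On its brightest probe, ILMN_2691192, the log2 intensity of Rbbp7 was 10.96, 10.87 and 10.77 on the CD133-positive arrays and 10.20, 10.10 and 10.26 on the CD133-negative arrays. The groups were well apart, with a difference of 0.68 ± 0.09 (SE, n = 3 per group, limma adjusted p = 0.0230).

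Rbbp7 passed on 3 of its 4 tested probes. ILMN_2691187 had 10.71, 10.56 and 10.61 on the CD133-positive arrays and 10.03, 10.06 and 10.03 on the CD133-negative arrays, a difference of 0.58 ± 0.08 (adjusted p = 0.0280). ILMN_1219275 had 10.54, 10.57 and 10.36 on the CD133-positive arrays and 9.62, 9.93 and 9.89 on the CD133-negative arrays, a difference of 0.67 ± 0.11 (adjusted p = 0.0407). The dimmer ILMN_2896823, whose arrays scattered widely within both groups, gave 0.12 ± 0.30 (adjusted p = 0.880). In the reported fit the call on Rbbp7 needed all 6 arrays. The adjusted p of the 3 probes lay between 0.0683 and 0.124 when any 1 array was left out, while the differences remained between 0.54 and 0.74. With 1 array left out only 7 to 14 of all tested probes passed, against 264. Without the filter on dim probes ILMN_1219275 alone did not pass (adjusted p = 0.0712). With a median shift in place of quantile normalization, the differences were 0.42 to 0.52 and the adjusted p 0.115 to 0.164. The 3 probes did pass without background correction (adjusted p = 1.76e-07 to 1.41e-06) and in the authors' intensities (adjusted p = 7.72e-08 to 8.53e-07). In these settings 1110 and 1157 of all tested probes passed.

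Rbbp4, the close paralogue of Rbbp7 and named here after its values were seen, had -0.55 ± 0.13 on its brightest probe (adjusted p = 0.0917). Its other tested probes gave -0.05 ± 0.08 and 0.16 ± 0.11 (adjusted p = 0.810 and 0.505). None of them passed. At an unadjusted p under 0.05 the list held 2 genes with a higher and 2 with a lower value in CD133-positive cells. Beside Rbbp7 and Rbbp4 these were Asf1b, an H3-H4 chaperone, at 0.29 ± 0.08 (adjusted p = 0.143), and Vps72, which binds H2A.Z, at -0.31 ± 0.10 (adjusted p = 0.204), also named after their values were seen.

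Of the 20 tested genes of ribosomal RNA transcription and processing, 0 passed by limma, with 1 higher and 3 lower at an unadjusted p under 0.05, and their median log2 difference was -0.06. The smallest p-values belonged to Rrp9, a component of the U3 small nucleolar ribonucleoprotein, and Nop2, a ribosomal RNA methyltransferase. Rrp9 had 8.67, 8.65 and 8.99 on the CD133-positive arrays and 9.21, 9.24 and 9.25 on the CD133-negative arrays, a difference of -0.46 ± 0.11 (adjusted p = 0.0985). Nop2 had -0.37 ± 0.11 on its brightest probe (adjusted p = 0.143) and -0.15 ± 0.11 and -0.13 ± 0.10 on the others. Neither gene passed. Both had groups that did not overlap on the brightest probe, as had 23.1% of all tested probes. Both did pass without background correction (adjusted p = 0.000768 for Rrp9 and 0.00659 for Nop2) and in the authors' intensities (adjusted p = 0.000838 and 0.00643). In these settings 1110 and 1157 of all tested probes passed, against 264 in the reported fit. Both also passed with robust estimation and with normexp without negative controls. With a detection p under 0.01 required on all arrays, Rrp9 passed (adjusted p = 0.0459) and Nop2 did not (adjusted p = 0.0795). Neither passed with a median shift (adjusted p = 0.0779 and 0.141), a replicate block (adjusted p = 0.165 and 0.186) or any 1 array left out.

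Of the 18 tested genes of 60S ribosome assembly, a process that nucleophosmin takes part in, 0 passed by limma, with 0 higher and 1 lower at an unadjusted p under 0.05. Their median log2 difference was -0.07, with 4 genes above 0 and 14 below, where 41.5% of all named genes lay above 0. Nmd3, the adaptor that exports the 60S subunit, had -0.37 ± 0.09 on ILMN_1254684 (adjusted p = 0.0935) and 0.26 ± 0.12 on ILMN_1228859, so its probes had opposite signs. Without background correction ILMN_1254684 did pass, at -0.27 (adjusted p = 0.0103), as it did in the authors' intensities (adjusted p = 0.0106). In these settings 1110 and 1157 of all tested probes passed. It also passed with normexp without negative controls (adjusted p = 0.0327) and with robust estimation (adjusted p = 0.0146). With a detection p under 0.01 required on all arrays it passed as well (adjusted p = 0.0447). It did not pass with a median shift (adjusted p = 0.118) or a replicate block (adjusted p = 0.197). Nor did it pass without the filter on dim probes (adjusted p = 0.172) or with any 1 array left out. Gtpbp4, a nucleolar GTPase of 60S assembly, had -0.20 ± 0.08 (adjusted p = 0.302).

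Of the 13 tested partners of nucleophosmin in p53 control, centrosome duplication and nuclear export, 0 passed by limma, with 1 higher and 0 lower at an unadjusted p under 0.05. Their median log2 difference was 0.08, beside -0.02 for all tested probes. With the median shift it was -0.05, beside -0.13 for all tested probes. Fbxw7, the ubiquitin ligase subunit that targets Myc, had 7.23, 7.41 and 7.45 on the CD133-positive arrays and 7.12, 7.02 and 7.09 on the CD133-negative arrays, a difference of 0.29 ± 0.09 that did not pass (adjusted p = 0.180). Ran, the GTPase of nuclear transport, had 0.12 ± 0.09 (adjusted p = 0.544). Cdkn2a, whose locus encodes ARF, was detected and had 0.12 ± 0.10 (adjusted p = 0.601), and was named after its values were seen. In bulk RNA such as this, fewer cells of a kind and less RNA per cell cannot be told apart.

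**Figure D4:**
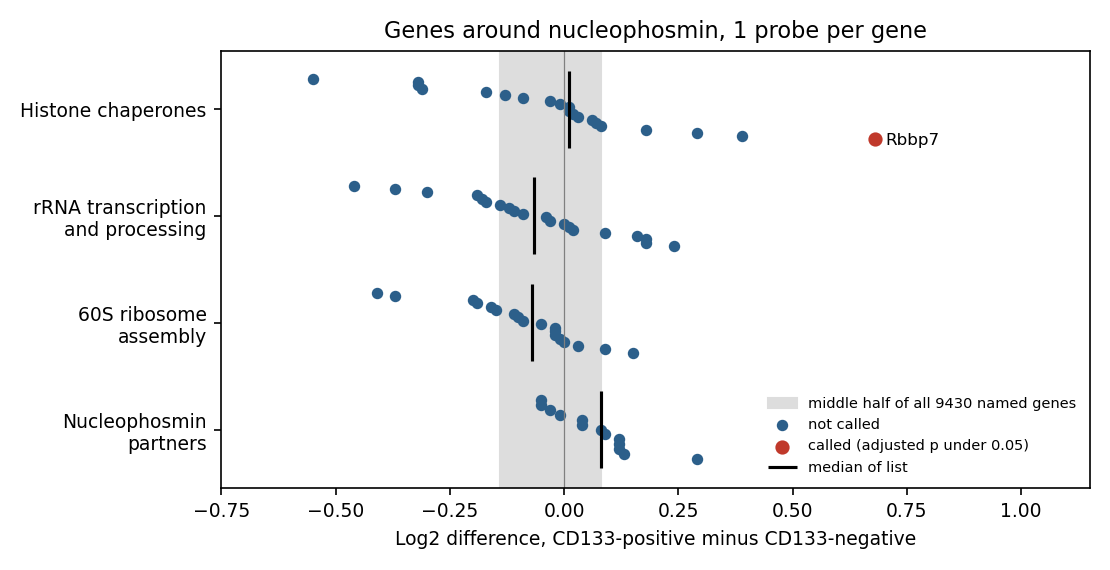
Log2 difference (CD133-positive minus CD133-negative) of each tested gene in 4 lists around nucleophosmin, with 1 probe per gene, black lines at list medians and the grey band spanning the middle of all 9430 named genes, -0.14 to 0.08. Rbbp7, at 0.68, is the 1 gene in red that passed, and the medians of the lists lie between -0.07 and 0.08.

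The genes whose profile over the 6 arrays was most like that of a member were found by the root-mean-square distance between log2 profiles, each centred on its own mean, with 1 probe per named gene. For ILMN_2965417 of Npm3-ps1 they were Taf15, an RNA-binding protein of the FET family, Pik3r1, a regulatory subunit of phosphoinositide 3-kinase, and Ppp1cb, a catalytic subunit of protein phosphatase 1, at distances of 0.03, 0.03 and 0.04. Their log2 differences were 0.60, 0.53 and 0.59. They lie near the 0.58 of the probe by construction, since the search matched profiles over the same arrays.

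For ILMN_2688681, which had the largest difference of any named probe, the nearest named genes lay farther away by construction. Hebp1, a heme-binding protein, the receptor phosphatase Ptprs and the ferritin receptor Ncoa4 stood at distances of 0.63, 0.65 and 0.69, with log2 differences of 1.25, 1.24 and 1.13. There were 3 probes without a single gene name nearer than these. For Npm1 the nearest were Itgb4, Kif23 and Emc2, each at 0.02, with log2 differences of -0.08, -0.04 and -0.08, again near the member by construction.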

How the data were processed

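Per the file headers, the deposited table gave for each of 45281 probes and each of 6 arrays a mean bead intensity, a bead standard error and a number of beads (an error and a number behind each signal), and a detection p-value. These deposited intensities were not normalized. The authors also deposited processed intensities, made by a method not given in the sources used here. These are on a linear scale with no centring of genes, had a rank correlation of 1 with the deposited intensity of each array, and had medians of 118.7 to 120.5.

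Groups came from the cell population label and replicate numbers from the titles, with unnumbered titles taken as replicate 1. With limma 3.58.1 in R 4.3.3, background was corrected by neqc (offset 16), which inferred the negative controls from detection p-values, followed by log2 and quantile normalization. The 17219 probes detected (p under 0.05) on 3 or more arrays were compared by lmFit and eBayes, two-sided, without covariates and with Benjamini-Hochberg adjustment over all of them. The fit was tested on simulated data. Precision is limited by the number of arrays, and the median standard error of a difference was 0.11.

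Gene symbols are those of the platform annotation, and some can be out of date. A single symbol was given for 34885 probes and several for 18, while 10378 probes, 2461 of them tested, had no entry. Of the named probes 34807 were found in RefSeq by gene identifier and 0 changed symbol. Probes of a gene were tested separately. The members, the lists and the settings were chosen with earlier results of these data known. The rule for named genes took every member, Prom1, and from each list up to 4 genes that passed or else the 2 with the smallest p. It also took the 3 genes nearest in profile to the Npm3-ps1 probe with the largest difference and to the brightest tested Npm3 probe. The profile search was run for both Npm3-ps1 probes and the detected Npm1 probe, the last in place of Npm3. Alternatives covered background, normalization, the authors' intensities, the filter, the variance model, a replicate block and each array left out.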

Additional observations from a re-analysis of the deposited data

How the results depend on the processing

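The alternatives for the gap between the Npm3-ps1 probes and for Rbbp7 were chosen after seeing the data. The planned comparison of Npm3-ps1 with Npm3 was not run, since no probe was named Npm3. The count of 264 probes, 216 higher and 48 lower, was 1110 without background correction (748 and 362), 734 with normexp correction without negative controls (546 and 188), 37 with a median shift (25 and 12), 1157 with the authors' intensities (836 and 321), 113 without a filter, 555 with detection under 0.01 on all arrays, 1096 with robust estimation and a trend in the variance, and 7 to 14 with 1 array left out (4 to 11 higher and 3 lower).

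The log2 difference on ILMN_2688681 was 1.89 without background correction, 2.11 with normexp without negative controls and 1.89 with the authors' intensities. That on ILMN_2965417 was 0.42 with a median shift, which put the median over the tested probes at -0.13. The gap between both probes differed by 1.32, 1.54 and 1.30 between groups in the first 3 of these settings. With 1 array left out the ranges were 2.40 to 2.58, 0.55 to 0.61 and 1.83 to 1.96. Npm1 on ILMN_2970473 had 0.01 with the authors' intensities and -0.16 with a median shift, and passed in no setting. With a median shift the list medians were -0.14 for histone chaperones, -0.22 for ribosomal RNA genes, -0.22 for 60S assembly and -0.05 for nucleophosmin partners, and with 1 array left out they ranged from -0.03 to 0.03, -0.09 to -0.04, -0.11 to -0.03 and 0.02 to 0.14. The lowest partners median was without CD133-negative replicate 1 and the highest without CD133-negative replicate 2. Settings that drop arrays or alter the filter test fewer or other values by construction, and otherwise the cause was not tested.

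The replicate numbers showed no pairing, as deviations of same-numbered arrays correlated at 0.02, 0.00 and 0.02. With the replicate block 6 probes passed, 3 higher and 3 lower, and the adjusted p was 0.120 to 0.123 for the 3 Rbbp7 probes and 0.758 for Npm1.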
